A study of Mus musculus with 3 samples.

Results

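The genes described here encode the proteins of the cytosolic ribosome. They were chosen by symbol: Rpl or Rps followed by a number and, where present, a closing a, x, y or l, together with Rplp0, Rplp1, Rplp2 and Rpsa. The rule found 84 members among 53802 gene features, 52 of the large subunit and 32 of the small subunit. GENCODE M21 annotates 3 of them (Rpl32l, Rpl6l and Rps4l) as processed pseudogenes and the rest as protein coding, with proteins of 25 residues (Rpl41) to 419 residues (Rpl4). Fau, Rack1 and other ribosomal genes with different symbols are not members and are used only for comparison.

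Ly6Chi monocytes, the inflammatory monocytes that enter injured tissue, had been sorted from the livers of male C57BL/6 mice aged 8 weeks and captured one by one in droplets. All mice had fasted for 12 h and received 300 mg/kg acetaminophen, which damages the liver; chow came back 2 h later and cells were taken at 24 h. The 2 control libraries, numbered 1 and 3, came from Commd10fl/fl mice, which carry a floxed but intact Commd10. The 1 knockout library (number 4) was made from LysMDCommd10 mice, in which the LysM promoter drives Cre in myeloid cells; COMMD10 is a protein of the COMMD family, which acts in endosomal sorting. Every comparison of knockout with control is therefore 1 library against 2. How many mice went into a library is not given, so the p-values rest on differences among these 3 libraries alone, and those may be technical.

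A ribosome pairs a large subunit, which forms peptide bonds, with a small subunit, which reads the mRNA, and most of their proteins are needed in equal numbers. The mRNAs of these proteins are among the most abundant in a cell, and many begin with a C followed by a run of pyrimidines, the 5′ terminal oligopyrimidine (TOP) motif, through which growth signals control their translation together.

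The start of the mRNA is shown for 6 members that the results below turn on, so that their motif can be read beside their values. Each run holds the last 10 bases before the RefSeq start site and the first 20 bases of the transcript, with the unbroken run of pyrimidines that begins at the start site in capitals (assembly GRCm38.p6). The windows are chr11:114668570-114668599 on the plus strand for Rpl38, chr2:39005112-39005141 on the minus strand for Rpl35, chr3:90213629-90213658 on the minus strand for Rps27, chr17:33824543-33824572 on the minus strand for Rps28, chr12:69184048-69184077 on the minus strand for Rpl36al and chr9:66946076-66946105 on the plus strand for Rps27l.
Rpl38: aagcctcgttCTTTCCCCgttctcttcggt
Rpl35: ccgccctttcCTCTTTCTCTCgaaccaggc
Rps27: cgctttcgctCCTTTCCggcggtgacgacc
Rps28: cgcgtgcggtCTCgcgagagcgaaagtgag
Rpl36al: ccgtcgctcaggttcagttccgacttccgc
Rps27l: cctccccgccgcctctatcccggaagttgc
Rpl38, Rpl35 and Rps27 begin with a C and at least 4 further pyrimidines, the form of the motif searched on the transcript strand, whereas Rps28 has a run of 3 and the annotated starts of Rpl36al and Rps27l have none. Of the 62 members with a RefSeq start, 14 (22.58%) held this form, against 813 of 27025 genes in the table (3.01%). The 6 shown do not stand for the members as a whole. Rpl37, Rpl37a, Rpl39, Rpl41 and Rpl36a lack the form at their annotated starts, and the knockout library was below both controls for each. Rpl15 and Rps10 hold it and had positive fold changes, whereas Rps21 holds it and was below both controls. A start site annotated a few bases away from the used one would hide the motif, so a window without it says only that these letters are not at that position.

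The libraries held 4814, 8109 and 5152 barcodes and 40092348, 72867668 and 30302932 UMIs (control 1, control 3 and knockout 4, the order used for all values below); a UMI, or unique molecular identifier, marks 1 captured mRNA molecule. The study states 4860, 8149 and 5229 cells. The filters on genes and mitochondrial UMIs kept 4115, 7449 and 4457 cells, whose median depths were 8770, 8160 and 6865 UMIs. Monocyte markers were found in at least 99.93% of cells of every library, whereas lymphocyte markers gated 25, 26 and 16 cells and neutrophil markers 1, 1 and 2 cells, and neither gate entered the sums called monocyte-macrophage here. The targeted gene Commd10 stood at 17.6, 10.3 and 8.41 CPM (UMIs scaled to an equal library total) and had a UMI in 14.24%, 9.05% and 5.27% of cells, so the knockout library was lowest and the controls differed among themselves by more than control 3 differed from the knockout; the 3′ reads need not lie in the deleted part. Pairs of libraries shared 8 to 26 cell barcodes.

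Members supplied 14.48%, 14.7% and 12.38% of the UMIs of monocyte-macrophage cells. The knockout library lay below both controls, with a difference of -2.21 percentage points from their mean (14.59 ± 0.16%, SD, n = 2). Over single cells the median share was 14.22%, 14.64% and 11.83%, and the SD over cells was 3.84, 3.66 and 4.04 points, where counting alone would give 0.42 to 0.43. Cells within a library thus differed from each other by more than the libraries did. With 2 libraries against 1, an exact permutation test over libraries cannot go below p = 0.33, so the share is given as values.

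Cells were then divided by fixed levels of marker genes into gates, which are ranges of marker level and not cell types; 7.01% to 27.65% of the cells in a gate lay at most 25% above its limit. The patrolling gate (Ace, Spn, Treml4, Eno3 and Cd300e) had member shares of 14.86%, 15.25% and 14.04%. The gates of MHC class II genes, which present antigen, had shares of 15.46%, 14.93% and 13.85% without C1q genes and 15.47%, 14.66% and 13.68% with them. Vcan/Ly6c2 cells, the largest group (1244, 3722 and 1325 cells), gave 14.75%, 15.0% and 12.92%, and S100a8-high cells 14.73%, 14.94% and 12.68%. The lowest shares were those of the Gpnmb/Lpl gate, with its lipid-handling genes, at 13.71%, 13.39% and 11.45%, and of the Arg1-high gate, named for arginase 1, at 13.53%, 13.07% and 10.6%. In each of these 7 gates and in the ungated cells (15.28%, 15.34% and 13.46%) the knockout library lay below both controls.

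**Figure D1:**
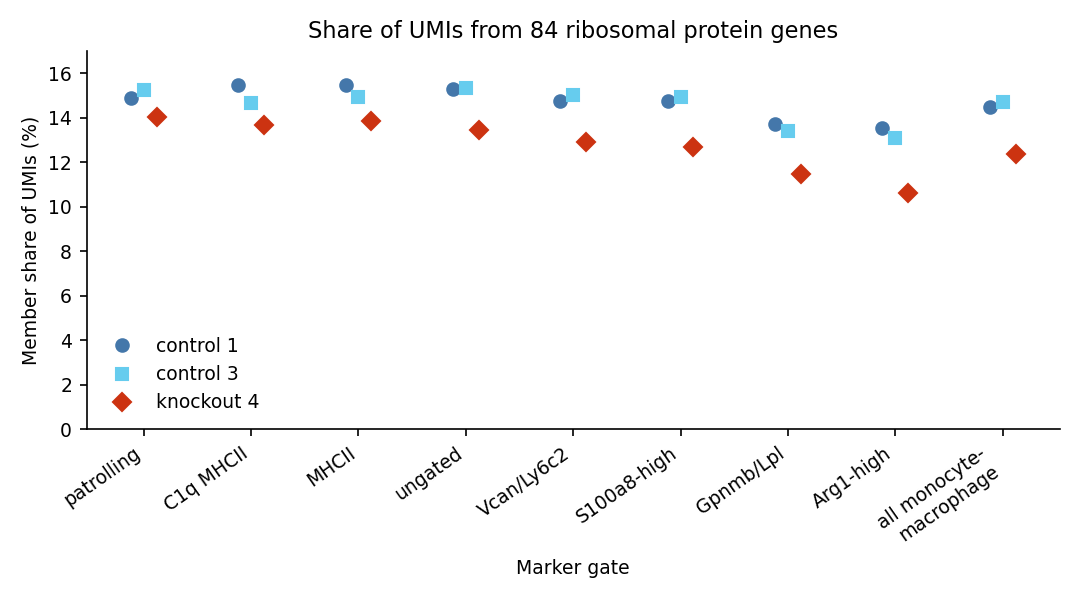
Member share of UMIs (y axis, percent) in each marker gate (x axis), 1 point per library. The knockout library sits below both controls in every group drawn, and the Gpnmb/Lpl and Arg1-high gates sit lowest within each library, with the Arg1-high gate of the knockout at 10.6%.

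The gates filled differently: Arg1-high cells made up 7.51%, 2.49% and 24.53% of the monocyte-macrophage cells. With every library given the same mix of gates, the shares were 14.54%, 14.51% and 12.61%, and the knockout differed from the mean of the controls by -1.92 points. The difference was also present at matched depth per cell. Among cells of 3000 to 6000 UMIs the members gave 14.13%, 14.81% and 11.77%, among cells of 6000 to 10000 UMIs 14.61%, 15.17% and 12.57%, and among cells of 10000 to 20000 UMIs 14.83%, 14.57% and 13.39%. Cells under 3000 UMIs stood apart in all libraries, with shares of 7.07%, 7.43% and 6.02% and median mitochondrial contents of 7.21%, 6.55% and 6.48%; barcodes above the mitochondrial limit of 10% had 5.15%, 5.12% and 4.04%. All 5 platelet marker genes together were at 167, 131 and 376 CPM, nearly all from Pf4 (164, 127 and 347 CPM). The 8 monocyte marker features were at 18347, 14812 and 10159 CPM, of which Lyz2 gave 15318, 11545 and 6461 CPM. Ccr2 and Csf1r were also lowest in the knockout. Cd14 (350, 454 and 843 CPM), Fcgr3 and Itgam were highest there, and Ly6c2 lay between the controls. The lists thus differed between knockout and control mainly through Pf4 and Lyz2, and their part in the member share was not tested.

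The large and small subunits kept nearly the same balance. The ratio of large to small subunit UMIs was 1.179, 1.118 and 1.147, so that the knockout lay between the controls. In the knockout comparison the median log2 fold change was -0.13 for the 50 large and -0.13 for the 32 small subunit members tested.

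Individual members were compared on UMI counts summed over the monocyte-macrophage cells of each library with edgeR's quasi-likelihood test, and levels are CPM after TMM scaling of the library totals; UMIs count molecules and are not divided by gene length. Of the 84 members, 82 passed the filter on low counts; Rpl10l, with 1, 0 and 1 UMIs, and Rpl6l, with 5, 14 and 7, did not. No member passed an adjusted p of 0.05 in either direction, where 0.00679% of 14728 genes passed as lower and 0.17% as higher in the knockout. At an unadjusted p under 0.05 stood 11 members (13.4%), against 8.49% of all genes; DESeq2 called 1 member, as lower. The median member was at a log2 fold change of -0.13 (all genes -0.01), 66 of 82 were below 0, and the knockout library was below both controls for 56 members (68.3%, against 36.9% of all genes) and above both for 4 (4.88%, against 36.2%). The median SE of a member was 0.16.

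Members differed by the length of their protein, and the shortest stood out. Rpl38, a large subunit protein of 70 residues, was at 1254, 1134 and 672 CPM, a log2 fold change of -0.83 ± 0.16 (SE; edgeR adjusted p = 0.162). Rps29, a small subunit protein of 56 residues, was at 4190, 4599 and 2704 CPM (-0.70 ± 0.16, adjusted p = 0.239). Rps28, at 69 residues also of the small subunit, was at 1595, 1411 and 939 CPM (-0.68 ± 0.16, adjusted p = 0.278). For these 3 the controls lay close together and the knockout well below them, but none passed. Rpl37 (97 residues) followed with 2733, 2868 and 1925 CPM, then Rps27 (84 residues) with 2188, 2542 and 1688, and Rps21 (83 residues) with 2430, 2712 and 1857. Rpl39, which lines the exit tunnel for the growing protein chain, was at 2659, 2885 and 2030 CPM. Rpl37a was at 3231, 3584 and 2518 CPM, and Rpl41, the shortest protein of the ribosome, at 4384, 4327 and 3438 CPM. The knockout was below both controls for each of these 9.

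Just above 100 residues, Rpl36 (1525, 1554 and 1123 CPM) and Rpl36a (758, 749 and 567 CPM) had log2 fold changes of -0.45 and -0.41, and Rpl35, at 123 residues, was at 1069, 905 and 665 CPM (-0.57 ± 0.17, adjusted p = 0.435). Rpl39l, the paralog of Rpl39 that is mainly known from testis, was near absence with 88, 22 and 5 UMIs, and its controls differed more from each other than control 3 did from the knockout. The remaining short member, Rps27l, was the exception: it was at 485, 454 and 466 CPM, between the controls.

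**Figure D2:**
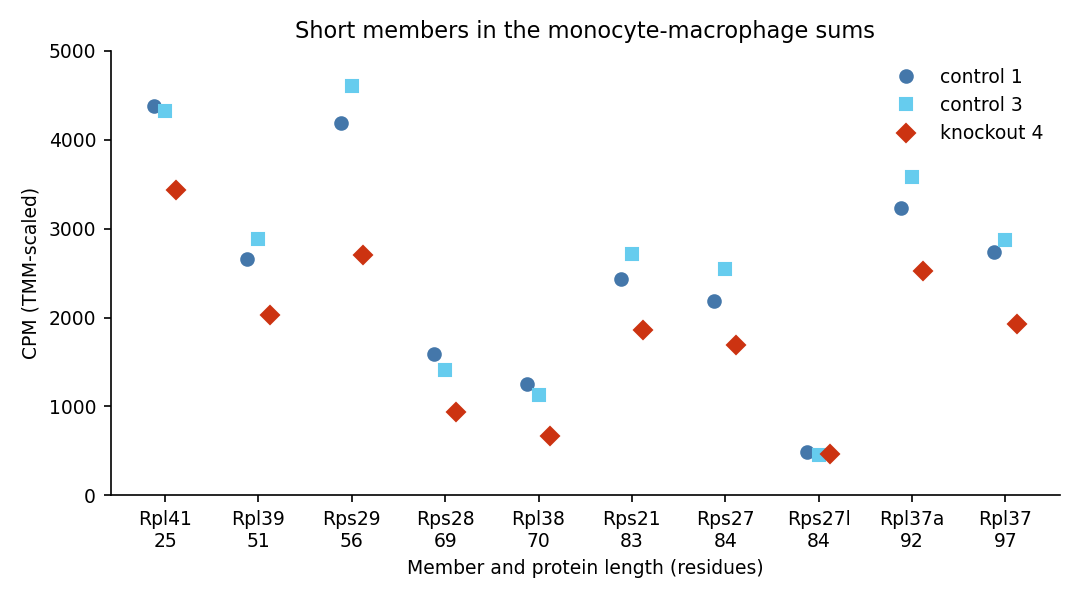
Levels in CPM (y axis, linear, from 0) of the members under 100 residues except the rare Rpl39l, ordered by protein length (x axis), 1 point per library. The knockout point lies below both control points for every member drawn except Rps27l, where the 3 libraries lie between 454 and 485 CPM.

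The 11 tested members under 100 residues had a median log2 fold change of -0.49, the 47 of 100 to under 200 residues -0.13 and the 22 of 200 or more -0.11, a difference of -0.37 between the short and the long. Comparing control 3 with control 1, the same classes had medians of 0.07, 0.03 and -0.04. For comparison, 101 other genes of at least 100 CPM and under 100 residues had a median of 0.04, and 1032 of 200 or more residues 0.06. Across the 80 members with a protein, the fold change and the protein length had a Spearman correlation of 0.51. With transcript length it was 0.39, across all 82 tested members. Both are given as a description since members share the same 3 libraries. Split at the median member length of 151 residues instead, the shorter and longer members differed by -0.11. By start site, the 14 members with the TOP form had a median of -0.22 and the other 47 tested -0.13. Of the tested members, 36 had at least 50% of the 90-base windows of their 3′ end also found in another gene. Their median was -0.08, and that of the other 46 was -0.18. How the counting treated reads that match such copies was not tested.

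**Figure D3:**
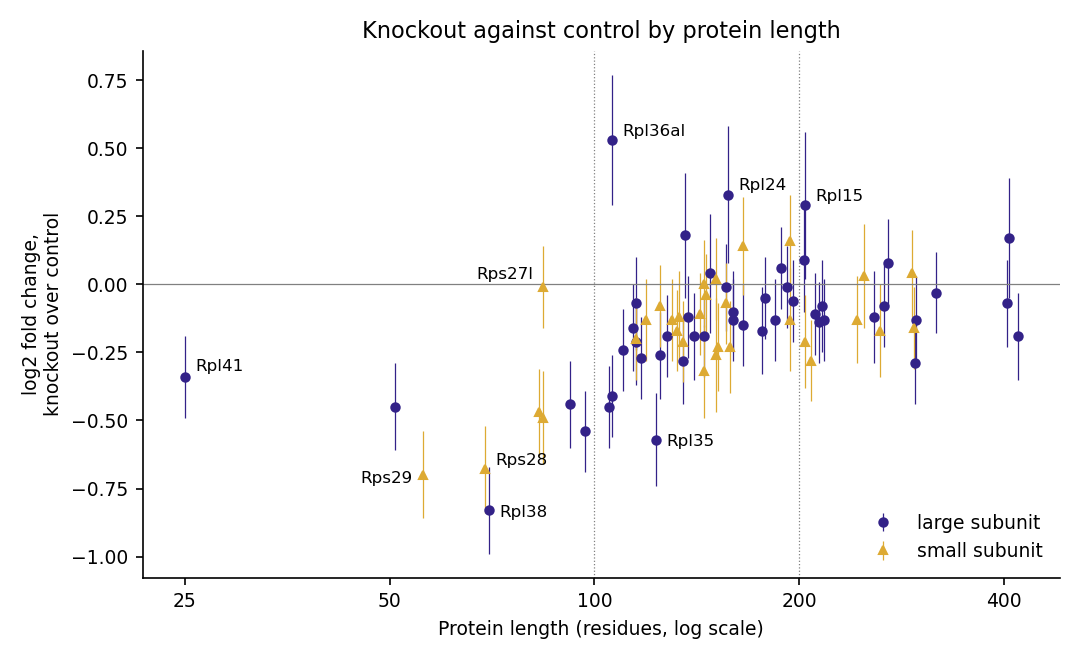
Log2 fold change of knockout over control with its SE (y axis) against protein length on a log scale (x axis) for the tested members with a protein, by subunit; dotted lines mark 100 and 200 residues, and Rpl39l (-2.76, 5 UMIs in the knockout) lies outside the range. Members under 100 residues lie between -0.34 and -0.83 with the exception of Rps27l, and the longer classes have medians of -0.13 and -0.11.

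Among paralogs, Rps27 and Rps27l encode proteins of 84 residues each; Rps27 had a log2 fold change of -0.49 ± 0.17 (adjusted p = 0.501) and Rps27l of -0.01 ± 0.15 (adjusted p = 0.991). Rpl36a was at -0.41 ± 0.15 (adjusted p = 0.524), and Rpl36al, its paralog, was at 474, 317 and 569 CPM, 0.53 ± 0.24 (adjusted p = 0.606). Rpl36al was highest in the knockout, but the controls alone differed by more than the knockout differed from control 1. Of the 3′ windows, 100% of those of Rpl36a and 75.88% of those of Rpl36al occur in another gene. How reads that match such copies were counted, or left out, is uncertain. Rpl3 (1248, 1094 and 1116 CPM) and its muscle paralog Rpl3l (8.88, 7.46 and 9.17 CPM), Rpl10 (1990, 2101 and 1856 CPM), and Rps4x (1890, 2251 and 1835 CPM) and Rps4l (24.6, 19.2 and 22.4 CPM) all had log2 fold changes between -0.17 and 0.17, with SEs of 0.15 to 0.22. The rarest member that passed the filter was the pseudogene Rpl32l, with 17, 29 and 8 UMIs.

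Of the 16 members with positive fold changes, 15 had their lowest level in control 3; the exception was Rps13 (1867, 1955 and 1944 CPM). Rpl24 was at 447, 288 and 462 CPM, Rpl15 at 446, 273 and 440, Rpl27 at 705, 488 and 675, Rps10 at 1902, 1544 and 1893, and Rps7 at 1313, 1092 and 1339. In each of these the knockout stood close to control 1 and control 3 stood below both. Without control 3 the fold changes of Rpl15, Rpl27 and Rps10 became -0.03, -0.07 and -0.01, so their sign rests on that library.

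Within gates the knockout comparison passed for members in 2 gates of 7. With 1 residual degree of freedom, the p-values there rest on a spread pooled over all genes. How strongly the fit of each gate pooled it was not recorded. The number of gates and members that passed also depended on the marker levels. For the other levels the share of all genes that passed is not given. Those counts therefore cannot be read as particular to the members. With the levels halved, 10 members passed in Arg1-high cells, 0 in the C1q gate, 2 in S100a8-high and 1 in MHC class II cells; with the levels doubled, 9 passed in S100a8-high, 3 in Gpnmb/Lpl, 2 in MHC class II and 1 in patrolling cells. In Arg1-high cells (307, 185 and 1089 cells) 18 of 80 members fell, against 4.38% of the 10142 genes tested, and 1 rose (5.23% of all genes). Rpl38 was at 1209, 1047 and 602 CPM there (-0.91 ± 0.13, edgeR adjusted p = 1.14e-09), and Rps29 at 3948, 4089 and 2516 CPM (-0.68 ± 0.11, adjusted p = 7.65e-08). Of the members under 100 residues, 9 of 10 tested fell; Rps27l was at 565, 526 and 449 CPM (adjusted p = 0.204). Rpl36al was the member that rose, at 474, 287 and 523 CPM (0.45 ± 0.14, adjusted p = 0.0166), although control 1 was far closer to the knockout than to control 3. Longer members that fell included Rpl6 of the large subunit, at 1391, 1252 and 1015 CPM (-0.38 ± 0.12, adjusted p = 0.0291).

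In the cells with C1q and MHC class II genes, Rps29 fell from 4602 and 4698 to 2895 CPM (-0.68 ± 0.13, adjusted p = 0.000233) and Rpl38 from 1414 and 1219 to 798 CPM (-0.72 ± 0.18, adjusted p = 0.0114), as 2 of 79 members, where 0.204% of all genes fell. No member passed in the patrolling, S100a8-high, Gpnmb/Lpl, MHC class II or Vcan/Ly6c2 gates. An unadjusted p under 0.05 was reached there by 11 to 17 members (13.6% to 21%), against 6% to 11.1% of all genes. Of all genes, 0.0184% passed as lower and 0.0368% as higher in patrolling cells, 0.0424% and 0.244% in S100a8-high cells, 0.00817% and 0.0817% in Gpnmb/Lpl cells, 0% in either direction in MHC class II cells, and 0.00815% and 0.0489% in Vcan/Ly6c2 cells, beside 0.3% as higher in the C1q gate. The knockout was below both controls for 33 of 81 members in patrolling cells (36.1% of all genes), 58 of 80 in S100a8-high cells (36%), 59 of 80 in Arg1-high cells (36.4%), 63 of 81 in Gpnmb/Lpl cells (38.3%), 44 of 79 in the C1q gate (35%), 40 of 80 in the MHC class II gate (36%) and 54 of 81 in Vcan/Ly6c2 cells (36.9%). The patrolling cells were thus close to the rate of all genes and the Gpnmb/Lpl cells farthest above it. Rpl38 ranged from -0.91 to -0.72 and Rps29 from -0.74 to -0.62 over the 7 gates, with the knockout below both controls in 7 of 7. Rpl35, Rpl36, Rpl36a, Rpl37, Rpl37a, Rpl39, Rpl41, Rps21, Rps27 and Rps28 were also below both controls in 7 of 7 gates, and Rpl36al was above both in 6 of 7. A further edgeR test asked whether the knockout difference in a gate departed from that in Vcan/Ly6c2 cells, an alternative added after seeing the data. It passed for no member in any of the 6 other gates, and the lowest adjusted p was 0.118, in Arg1-high cells. There 5 members (6.17%) had an unadjusted p under 0.05, against 10.6% of all genes. The same test passed for 0.56% of all genes as higher and 0.619% as lower in patrolling cells, 0.0595% and 0.0425% in S100a8-high cells, 0.326% and 0.481% in Arg1-high cells, 0.125% and 0.141% in Gpnmb/Lpl cells, 0.363% and 0.396% in the C1q gate, and 0.0968% and 0.29% in the MHC class II gate. A gate in which members passed is therefore not shown to differ from the gates in which none did.

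The share of short members was then followed into other cells. Members under 100 residues gave 17.8%, 18% and 14.4% of member UMIs in monocyte-macrophage cells, 14.2% to 14.8% in the 7 gates and the ungated cells of the knockout library and 17.4% to 18.4% in those of the controls. In the lymphocyte gate, whose cells are not myeloid, they gave 17.7%, 18% and 13.9%, with an exact 95% interval of 13.3% to 14.5% for the knockout. Rps29 supplied 2.76%, 2.38% and 1.62% of member UMIs in these lymphocytes and Rpl38 0.815%, 0.903% and 0.441%, from 59 UMIs in the knockout; the knockout's intervals (1.41% to 1.84%, and 0.336% to 0.569%) lay below those of both controls. These 2 members were the clearest: the knockout's share was below both controls for 9 of the 11 short members, but for the other 7 of these the interval overlapped that of at least 1 control, and Rpl39 lay between the controls at 1.82%, 2.18% and 1.91%. Among barcodes over the mitochondrial limit the short members together gave 17.9%, 18% and 14.7%, with 8 of 11 below both controls; Rps27 was at 1.34%, 1.35% and 1.36% there and Rps27l at 0.228%, 0.338% and 0.356%, both highest in the knockout. Intervals here cover counting error only, and how much free monocyte RNA these droplets held was not tested. In each library, then, the fraction from short members was about the same in all cell groups and lower in the knockout library than in both control libraries; whether this belongs to the genotype or to the library cannot be told apart with 1 knockout library.

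**Figure D4:**
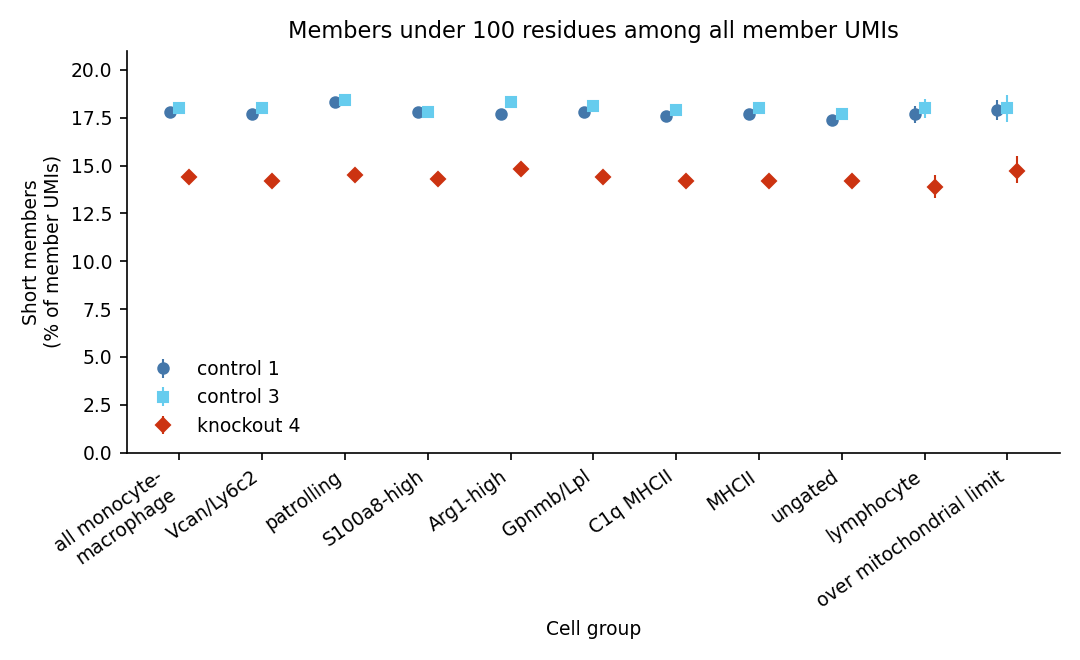
Percent of member UMIs that came from members under 100 residues (y axis, from 0) in each cell group (x axis), 1 point per library with exact 95% binomial intervals. The knockout library lies between 13.9% and 14.8% in all 11 groups, including lymphocytes and barcodes over the mitochondrial limit, and the controls between 17.4% and 18.4%.

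Gates were also compared with Vcan/Ly6c2 cells of the same library, with the library as a block; the 6 comparisons share those Vcan/Ly6c2 sums. Members fell broadly in 2 of them. In Arg1-high cells 43 of 80 members fell and none rose, against 14.1% of 11605 genes that fell and 14% that rose. The median member was at a log2 fold change of -0.17 (all genes 0.0014), and 66 of 80 members were lower in 3 of 3 libraries (28.6% of all genes). Rps9, which binds ribosomal RNA early in small subunit assembly, was at 3013, 3890 and 3101 CPM in Vcan/Ly6c2 cells and 2405, 2585 and 2364 CPM in Arg1-high cells (-0.44 ± 0.06, edgeR adjusted p = 6.21e-05). Rps4x went from 2020, 2376 and 1962 CPM to 1634, 1738 and 1459 CPM (-0.39 ± 0.06, adjusted p = 9.48e-05). For both members every library was lower in its Arg1-high cells. Short and long members fell alike, with class medians that differed by 0.02. Of the 10 tested under 100 residues 5 fell: Rpl39 (-0.28 ± 0.06, adjusted p = 0.00129), Rps27 (-0.22), Rps21 (-0.21), Rpl37 (-0.17) and Rpl37a (-0.17). Of the 3 lowest in the knockout comparison none passed here: Rps28 had a log2 fold change of -0.16 (adjusted p = 0.0562), Rps29 of -0.12 (adjusted p = 0.103), and Rpl38 was at 1236, 1125 and 662 CPM in the reference and 1214, 1052 and 604 CPM in Arg1-high cells (adjusted p = 0.33).

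In Gpnmb/Lpl cells 45 of 81 members fell and 2 rose, against 19.8% and 19.3% of 12170 genes, with a member median of -0.13, and 64 of 81 were lower in 3 of 3 libraries (31.2% of all genes). Rps9 fell again, from 3012, 3916 and 3104 CPM to 2356, 2805 and 2250 CPM (-0.43 ± 0.04, adjusted p = 5.62e-07), and Rplp0, the base of the stalk that recruits elongation factors, from 2542, 2622 and 2496 CPM to 2193, 2096 and 1993 CPM (-0.29 ± 0.04, adjusted p = 6.35e-05). Rps4x was at -0.29 ± 0.05 (adjusted p = 8.21e-05). The 2 that rose were Rps27l, from 453, 420 and 468 CPM to 538, 527 and 473 CPM (0.20 ± 0.06, adjusted p = 0.0109), with a rise of only 5 CPM in the knockout library, and Rps2, a small subunit protein at the mRNA entry channel, from 2253, 1939 and 2198 CPM to 2440, 2314 and 2401 CPM (0.17 ± 0.05, adjusted p = 0.0077). The calls depended on the fit: without the library as a block, 2 members passed in Arg1-high cells and 0 in Gpnmb/Lpl cells. Without control 3, 16 and 12 members passed; without the knockout library 28 passed in Arg1-high cells, and without control 1 22 passed in Gpnmb/Lpl cells.

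**Figure D5:**
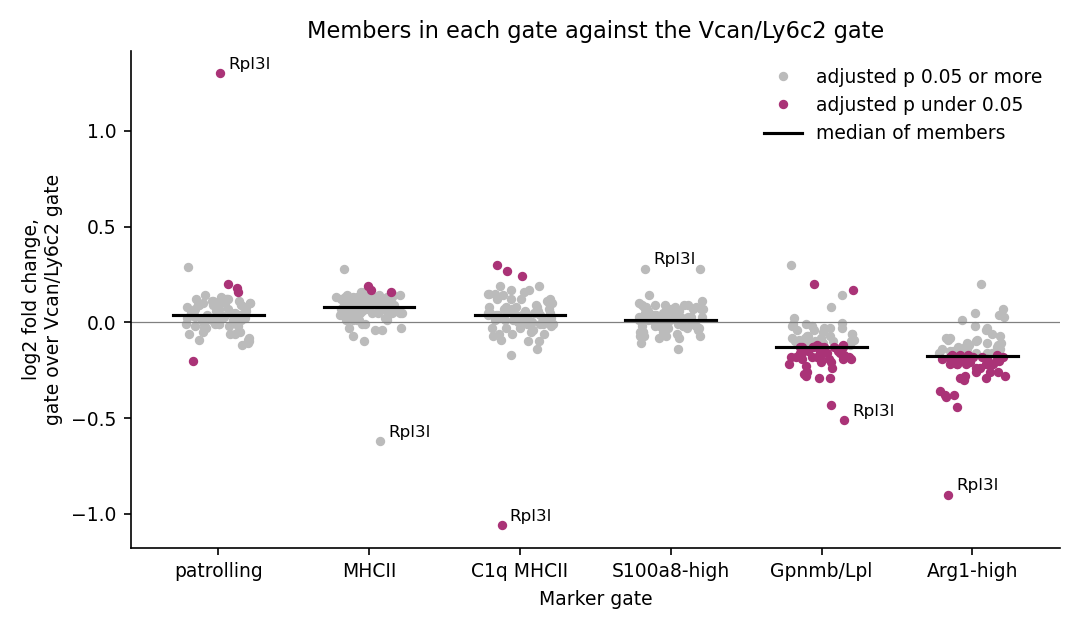
Log2 fold change of each tested member in 6 gates (x axis) against Vcan/Ly6c2 cells of the same libraries (y axis), with members past the threshold in purple and the member median as a bar. The Gpnmb/Lpl and Arg1-high medians lie at -0.13 and -0.17, the other 4 medians between 0.01 and 0.08, and Rpl3l, labelled, is the point farthest from 0 in every gate but S100a8-high, where another member ties with it.

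The other 4 gates had few member calls, at or under the rates of all genes. In patrolling cells 4 of 81 members rose and 1 fell (9.22% and 8.77% of all genes). Of these 5 calls only that of Rpl3l was left with DESeq2, without the library as a block, or without control 1, and the member median of 0.04 turned to -0.02 with halved marker levels. Rpl3l, the paralog that replaces Rpl3 in striated muscle, rose from 7.79, 7.69 and 10.2 CPM to 24.4, 17.3 and 21.4 CPM (1.30 ± 0.14, adjusted p = 2.84e-05), resting on 123, 98 and 59 UMIs in that gate; Rpl3 itself was at 1289, 1107 and 1174 CPM against 1270, 1157 and 1219 CPM (adjusted p = 0.721). In Arg1-high cells Rpl3l went the other way, to 4.07, 4.66 and 5.15 CPM (-0.90 ± 0.21, adjusted p = 0.00503) from 13, 10 and 36 UMIs, and it was also lower in Gpnmb/Lpl cells at 5.41, 5.88 and 5.74 CPM (-0.51 ± 0.15, adjusted p = 0.0126). In cells with C1q and MHC class II genes it had only 3, 20 and 1 UMIs (adjusted p = 0.0461). The other members that rose in patrolling cells were Rps27, from 2239, 2604 and 1720 CPM to 2569, 2839 and 2109 CPM (0.20 ± 0.05, adjusted p = 0.00786), Rpl37a (0.18 ± 0.05, adjusted p = 0.0204) and Rps14 (0.16 ± 0.05, adjusted p = 0.0351), and Rpl36al fell (-0.20 ± 0.05, adjusted p = 0.0199), each in 3 of 3 libraries.

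In the MHC class II gates Rps2 rose with C1q (0.30 ± 0.06, adjusted p = 0.00426) and without it (0.19 ± 0.05, adjusted p = 0.0165), and so did Rpl12, a stalk protein of the large subunit (0.27 ± 0.07, adjusted p = 0.0119, and 0.16 ± 0.05, adjusted p = 0.0481). Rps27l rose with C1q (0.24 ± 0.08, adjusted p = 0.0404) and Rps27 without it (0.17 ± 0.05, adjusted p = 0.0411). These make 3 higher and 1 lower of 81 members with C1q, against 7.94% and 8.95% of all genes, and 3 higher and 0 lower without it, against 6.05% and 6.02%; with DESeq2 the latter count was 0 and the former 2, and without control 1, or without the library as a block, both were 0. In S100a8-high cells no member passed, against 3.13% and 2.94% of all genes. An unadjusted p under 0.05 was reached by 8 members (10%), fewer than the 18% of all genes. The lowest was that of Rps12 (2608, 2760 and 2335 CPM against 2869, 2922 and 2541 CPM, edgeR adjusted p = 0.0675).

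Lists of genes that work with the ribosome were compared in the same fits. In the knockout comparison none of the 7 ribosomal genes outside the rule, 12 elongation and TOP genes, 26 initiation factors, 30 ribosome biogenesis genes or 78 mitochondrial ribosomal proteins passed. The lowest p in those lists belonged to Eif1, which selects the start codon and stood at 1444, 1609 and 2120 CPM (0.47 ± 0.15, adjusted p = 0.464). The ribosomal genes outside the rule had a median of 0.20 but were mixed, with 3 of 7 below 0. Rack1 (-0.30 ± 0.17) and Fau (-0.15 ± 0.18) lay below 0, and Rps27rt (0.29 ± 0.17) and Rpl7l1 (0.20 ± 0.15) above it. Other medians were -0.05 for elongation and TOP genes, 0.03 for initiation factors, -0.14 for ribosome biogenesis (24 of 30 below 0) and -0.06 for mitochondrial ribosomal proteins (54 of 78 below 0). All members had a median of -0.13, so the biogenesis list was as low as the members. A list of respiratory chain subunits was chosen by name and, unlike the short members, was not cut at 100 residues. The 25 tested respiratory chain subunits of small size had a median of 0.03, beside -0.49 for the ribosomal members under 100 residues; Atp5k was the lowest of them by p, at 361, 306 and 245 CPM (-0.45 ± 0.17, adjusted p = 0.534).

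In Arg1-high cells, where 43 members fell, 20 of 30 ribosome biogenesis genes rose and none fell, with a median of 0.54. Ncl, or nucleolin, which acts on ribosomal RNA transcription, rose by 0.91 ± 0.10 (adjusted p = 4.99e-06), and Gar1, part of the pseudouridylation complex, by 1.04 ± 0.12 (adjusted p = 6.13e-06). Initiation factors were split, with 12 of 26 higher, such as Eif4a1 (0.48 ± 0.06, adjusted p = 3.26e-05), and 3 lower, among them Eif3f (-0.60 ± 0.07, adjusted p = 1.32e-05). Fau, a small subunit protein outside the rule, fell with the members (-0.27 ± 0.06, adjusted p = 0.00269). Gpnmb/Lpl cells gave 22 of 30 biogenesis genes higher and none lower (median 0.56; Gnl3 0.99 ± 0.07, adjusted p = 3.87e-09). In the C1q gate 20 of 30 biogenesis genes also rose (7.94% of all genes), and in the MHC class II gate 13 of 30 (6.05%). The list medians were 0.57 and 0.28, while member medians there were 0.04 and 0.08. In S100a8-high cells the biogenesis list went the other way, with a median of -0.18. There 3 of 30 were lower and none higher (2.94% and 3.13% of all genes). In patrolling cells 1 of 30 rose and none fell (9.22% and 8.77% of all genes), with a median of 0.01. Of 77 mitochondrial ribosomal proteins, 7 were higher and 4 lower in Arg1-high cells (14% and 14.1% of all genes) and 19 higher and 4 lower in Gpnmb/Lpl cells (19.3% and 19.8% of all genes).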

How the data were processed

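The deposited files hold UMI counts for every gene and barcode, not normalized, which the authors made with Cell Ranger 3.0.2 and bcl2fastq on GRCm38, per the submitters' processing notes. Members and gene lists were chosen with earlier results of these data known. Cells needed 500 genes and no more than 10% of UMIs from mitochondrial genes; no doublet caller was run, and leaving out cells over 2 times the median UMI count was an alternative. Cells entered the first marker gate they met, on summed marker levels per 10000 UMIs. Counts were summed per library, or per library and gate (at least 20 cells each, 50 for knockout within a gate), and fitted with edgeR 4.0.16 (R 4.3.3): TMM, filterByExpr, glmQLFit and two-sided glmQLFTest, Benjamini-Hochberg adjustment over all genes tested, threshold 0.05. Spread in the knockout arm, with its 1 library, was taken from the controls. In the fit of the monocyte-macrophage sums the edgeR prior df was 5.99, the common BCV 15.6% and the residual df 1. The prior df of the fits within gates was not recorded and need not be the same. On simulated counts with 200 changed genes the knockout fit (14651 genes on average) recovered 42% of changes of 1 log2 unit and 100% of changes of 2, with 4.2% of calls false; the Arg1-high fit (11523 genes) recovered 98.3% and 100%, with 6.71% false. Recovery depends on the spread put into such counts. Whether the Arg1-high rates hold at the spread between the real libraries was not tested. Alternatives were DESeq2 1.42.0, other scalings, no low-count filter, other gate levels, thinning to 3000 UMIs, other cells and leaving out each library. The pairing of gates within a library comes from their shared cell suspension. Intervals are exact (Clopper-Pearson). Protein and transcript lengths came from GENCODE M21, which held 99.82% of the features, since no protein table was used here; start sites came from RefSeq. Named members were the 10 with the shortest proteins, the 6 of lowest p in each direction, the 4 largest passing changes in each direction per gate (or the 2 of lowest p), the paralogs, the rarest, and 2 genes in each direction per companion list, of which some are not reported here; Rpl6, Rps13 and others given as examples were chosen after their values were seen.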

Additional observations from a re-analysis of the deposited data

Results flagged for a closer look

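The member share of summed UMIs moved in opposite directions in lymphocytes and in monocyte-macrophage cells, but not as a median over cells. In the lymphocyte gate it was 23.61%, 20.2% and 23.84% in control 1, control 3 and knockout 4, so the knockout lay above both controls, by 1.93 percentage points from their mean, whereas in monocyte-macrophage cells the differences from control 1 and control 3 were -2.10 and -2.32 points. The difference was not tested. The lymphocyte values rest on 25, 26 and 16 cells, and the knockout was only 0.23 points above control 1. As a median over lymphocytes the share was 25.92%, 22.17% and 25.85%, so the knockout lay between the controls. As a mean over them it was 24.28%, 22.78% and 24.54%, again highest in the knockout. The direction in lymphocytes thus depended on the measure.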

How the results depend on the processing

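No paired analysis was possible because the control and knockout libraries share no replicate number. Counts of members under other settings, here and above, are given without the share of all genes that passed in the same setting. They show how the member calls moved and cannot be read as particular to the members. Members past the threshold in the knockout comparison numbered 0 in edgeR, but 1 with DESeq2 (Rpl38) and 6 without the low-count filter (Rpl35, Rpl37, Rpl38, Rpl39l, Rps28 and Rps29), all lower. Within gates, halving the marker levels gave 2 in S100a8-high, 10 in Arg1-high, 0 in C1q MHCII and 1 in MHCII cells, doubling them gave 1 in patrolling, 9 in S100a8-high, 3 in Gpnmb/Lpl and 2 in MHCII cells, and TMM without the members gave 1 in S100a8-high cells; the causes were not tested. The median knockout fold change of members was -0.18 with library totals and -0.18 to -0.13 without control 1 or control 3. The knockout difference in member share was -2.58 points as a mean over cells and -1.92 with the gate mix made equal, an alternative chosen after seeing the data. The difference between short and long members was -0.11 when split at the median length and -0.20 between the members with the shortest and the longest transcripts.

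Against Vcan/Ly6c2 cells, the fits with no replicate block gave 1 member in patrolling, 2 in Arg1-high and 0 in each of the Gpnmb/Lpl, C1q MHCII and MHCII gates, and changed no call count in S100a8-high cells. Leaving out 1 library gave 1 to 5 in patrolling, 0 to 1 in S100a8-high, 16 to 35 in Arg1-high, 12 to 39 in Gpnmb/Lpl, 0 to 8 in C1q MHCII and 0 to 6 in MHCII cells. DESeq2 gave 1, 27, 2 and 0 in the patrolling, Gpnmb/Lpl, C1q MHCII and MHCII gates. Without the low-count filter there were 8 in patrolling and 2 in S100a8-high cells, and TMM without the members gave 1 each in S100a8-high and MHCII cells. Halved marker levels gave 3, 2 and 0 in patrolling, C1q MHCII and MHCII cells, doubled levels 12 and 14 in the latter gates, overlapping gates 16 and 12, and thinning to 3000 UMIs 3 in patrolling, 1 in S100a8-high, 8 in C1q MHCII and 10 in MHCII cells. The member median changed sign to -0.02 in patrolling cells with halved levels, to -0.01 in S100a8-high cells with library totals, without the filter and with halved levels, and to -0.01 in C1q MHCII cells without the filter. Leaving out control 1 or control 3, the knockout fold change ran from -0.03 to 0.69 for Rpl15, -0.07 to 0.47 for Rpl27, -0.01 to 0.30 for Rps10 and -0.07 to 0.04 for Rps27l.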
